A study of Homo sapiens with 3 samples.

Results

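Glypicans and syndecans are the families of cell-surface proteins that carry most of the heparan sulfate on the plasma membrane. The 10 human genes, GPC1 to GPC6 and SDC1 to SDC4, were taken by symbol from tables that list 27307 genes, and for each symbol the transcript entry with the highest mean level over the libraries was used. All 10 genes were measured. The data are 3 RNA-seq libraries of polyadenylated RNA from teratomas of H1, an established human embryonic stem cell line. Per the labels, SCID-beige mice, which are immunodeficient, received 1000000 cells by subcutaneous injection, and the tumours were frozen after 3 to 4 weeks. The libraries, here teratomas 1, 2 and 3 after their replicate numbers, form a single group without controls, and nothing in the labels ties them to separate tumours or animals. Levels are RPKM, the reads of a transcript entry per kilobase of its length and per 1000000 reads of the library.

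Glypicans are tied to the outer face of the membrane by a GPI anchor, and syndecans cross the membrane with a short cytoplasmic tail. The heparan sulfate chains of both bind growth factors and morphogens, among them FGFs, WNTs, BMPs and hedgehog proteins, and thereby set how long these ligands stay near their receptors. The genes have different tissues of choice in development: GPC2 and SDC3 are known from neurons, SDC1 from epithelia, SDC2 from mesenchyme, and GPC3 from fetal liver, yolk sac and embryonic mesoderm. A teratoma, a tumour in which pluripotent cells form tissues of the 3 germ layers, can hold all of these.

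The read totals implied by the deposited counts, lengths and RPKM values were 46243199, 45815402 and 43605458 in teratomas 1, 2 and 3. Teratoma 3 stood apart from the other libraries: the counts of teratomas 1 and 2 differed with a chi-square per gene of 57.7, against 314 for teratomas 1 and 3 and 234 for teratomas 2 and 3. Markers of all germ layers were present. All 12 neuron markers, 9 neural progenitor markers, 11 fibroblast markers, 10 liver and yolk sac markers and 8 simple epithelium markers reached 1 RPKM in every library. So did all 7 markers of Schwann cells and neural crest, against 52.7% of all genes. Other lists were detected in part: 4 of 8 cartilage, 4 of 8 stratified epithelium and 3 of 7 endothelium markers. Of the leukocyte markers 2 of 7 reached that level, and of the pluripotent cell markers 5 of 6. In a bulk sample, fewer cells of a type and less RNA per cell cannot be told apart, and reads of the mouse host that match human sequence may be included.

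Of the 10 genes, 9 reached 1 RPKM in all 3 libraries, against 52.7% of all genes. GPC3 had the highest mean of the family members, 221 ± 140.2 RPKM (SD, n = 3, as for all means here), which placed it 96th among the 27307 genes. SDC3 followed with 87.1 ± 31.7 RPKM, GPC1 with 64.6 ± 7.35 RPKM and GPC2 with 53.4 ± 28.9 RPKM. SDC4 averaged 36.1 ± 20.9 RPKM, SDC2 26.2 ± 10.5 RPKM, SDC1 26.2 ± 11.2 RPKM and GPC4 21.8 ± 5.27 RPKM. GPC6 averaged 6.67 ± 2.22 RPKM and GPC5 0.95 ± 0.256 RPKM. In this order, neighbours were separate beyond their spread in only 2 places: every library had more GPC4 than the highest value of GPC6, and more GPC6 than the highest value of GPC5. From GPC3 down to GPC4, the ranges of neighbouring genes over the 3 libraries overlapped. Much of that overlap came from teratoma 3, since 7 of the neighbouring pairs had separate ranges when genes were ordered by teratomas 1 and 2 alone. Compared within each library, SDC3 exceeded GPC1 in 3 of 3 libraries despite the overlap. GPC2, placed above SDC4 by its mean, exceeded it in only 1 of 3, teratoma 3. Each other neighbouring pair from GPC3 down to GPC4 kept its order in 2 of 3.

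**Figure D1:**
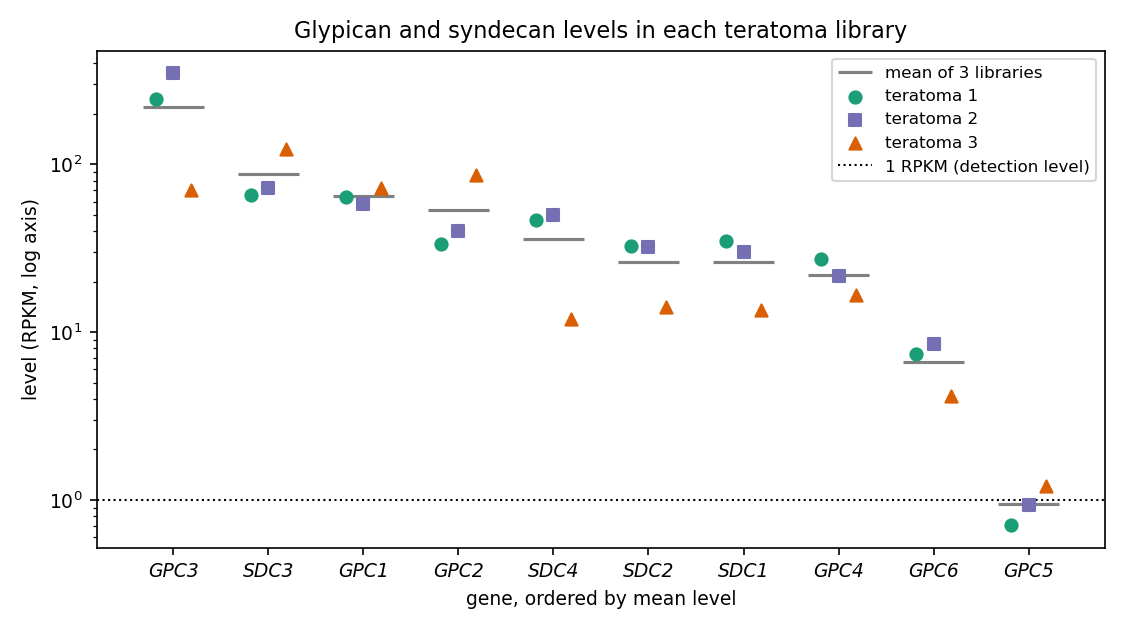
Level of each gene in RPKM on a log axis, with 1 point per library, a grey line for the mean of the 3 libraries and a dotted line at 1 RPKM. GPC3, SDC4, SDC2 and SDC1 lie well below the other libraries in teratoma 3, GPC2 and SDC3 lie above them, and GPC1 changes little.

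The libraries differed in which family members they held. A gene was counted as differing when its highest and lowest library were at least 1 apart on the log2(RPKM + 1) scale, which is close to 2-fold for well expressed genes and understates differences of low ones. Of the 9 detected genes 5 differed that far, GPC2, GPC3, SDC1, SDC2 and SDC4, against 17.6% of the 14388 detected genes. The median difference was 1.15 over the 9 detected members and 0.42 over all detected genes. GPC3, SDC1, SDC2 and SDC4 were lowest in teratoma 3, and GPC2 was highest there. Of all detected genes 10.1% both differed by at least 1 and were lowest in teratoma 3, and 7.07% both differed by at least 1 and were highest there. Regardless of size, 6 of the 9 were lowest in teratoma 3, against 47.0% of detected genes, and 3 were highest there, against 40.9%. Between teratomas 1 and 2 none of the 9 differed by 1, against 1.99% of genes detected in both. All these differences thus rest on teratoma 3. No test between conditions is possible with a single group, and these counts describe the 3 libraries.

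Among the glypicans, GPC3, whose loss causes an overgrowth syndrome and which is a marker of fetal and malignant liver, had 243, 348 and 70.7 RPKM in teratomas 1, 2 and 3. Teratoma 2 was highest and teratoma 3 lay 4.93-fold below it, a difference of 2.28 on the log2(RPKM + 1) scale. A difference of 2 or more was found for 2.37% of detected genes. The 10 markers of liver and yolk sac were all highest in teratoma 2 and all lowest in teratoma 3. Of all detected genes 47.0% were lowest in teratoma 3. The summed level of these markers was 1143, 4059 and 369 RPKM. AFP, the fetal plasma protein, had 452, 1889 and 159 RPKM, and APOA1, an apolipoprotein, had 371, 1205 and 109 RPKM. No liver or yolk sac marker was listed at 0. GPC3 shared the order of the libraries with these markers but not their size, since teratoma 2 exceeded teratoma 1 by far more for AFP than for GPC3. On the log2(RPKM + 1) scale, GPC3 deviated from its mean by 0.42, 0.93 and -1.35 in teratomas 1, 2 and 3. Mean deviations were -0.12, 1.65 and -1.53 for liver and yolk sac markers and 0.64, 0.63 and -1.28 for simple epithelium markers. Fibroblast markers had 0.75, 0.29 and -1.04. The liver and yolk sac list was thus not the only one low in teratoma 3. The part of these cell types in the GPC3 level was not tested.

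GPC2, a glypican first described as a protein of developing neurons in rat brain, went the other way. It had 33.6, 39.9 and 86.6 RPKM in teratomas 1, 2 and 3, with teratoma 3 at 2.58-fold the level of teratoma 1. SDC3, the neural syndecan also called N-syndecan, had 65.6, 72.2 and 124 RPKM. Its highest library was 1.88-fold its lowest, and its difference of 0.90 on the log2(RPKM + 1) scale stayed just under 1. Both genes were lowest in teratoma 1 and highest in teratoma 3. All 12 neuron markers were highest in teratoma 3 too, against 40.9% of detected genes, and their summed level was 801, 999.7 and 2643 RPKM. TUBB3, a tubulin of neurons, had 435, 509.8 and 1216 RPKM, and STMN2, which regulates microtubules in axons, had 103, 137 and 439.6 RPKM. Of the 9 neural progenitor markers 8 were highest in teratoma 3, with sums of 299, 303 and 449 RPKM. Only 3 of the 9 differed by at least 1, against 17.6% of detected genes. FABP7 alone had 34.3, 48.8 and 134 RPKM, while NES had 94.0, 87.8 and 98.4 RPKM and SOX2 86.8, 87.1 and 107 RPKM. The part of neurons in the levels of GPC2 and SDC3 was not tested.

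Of the remaining glypicans GPC1 was the steadiest. GPC1, which is abundant in brain and skeletal muscle and binds FGF2, had 63.4, 58.0 and 72.5 RPKM, so that its highest library was 1.25-fold its lowest. GPC4, which is expressed in kidney and in neural precursors, had 27.2, 21.6 and 16.6 RPKM, and GPC6, a gene of limb and skeletal growth, had 7.39, 8.43 and 4.18 RPKM. Both were lowest in teratoma 3, by 0.68 and 0.86 between highest and lowest library on the log2(RPKM + 1) scale. GPC5 had 0.706, 0.927 and 1.22 RPKM from 96, 125 and 156 reads, and reached 1 RPKM in teratoma 3 alone. Its 95% counting interval (exact Poisson) ran from 0.572 to 0.862 RPKM in teratoma 1 and from 1.03 to 1.42 RPKM in teratoma 3. For all 10 genes the counting intervals of the highest and the lowest library lay apart. The share of all genes for which this held was not computed, so the count does not set these genes apart. Over all genes too the libraries differed beyond counting error, with a chi-square per gene of 57.7 for teratomas 1 and 2.

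The other syndecans were all lowest in teratoma 3. SDC4, which occurs in most tissues and sits at focal adhesions, had 46.5, 49.7 and 11.98 RPKM, the largest difference in its family at 1.96 on the log2(RPKM + 1) scale. SDC1, the syndecan of epithelia and plasma cells, had 35.1, 29.9 and 13.6 RPKM. SDC2, the syndecan of mesenchymal cells, had 32.4, 32.3 and 14.1 RPKM. The levels of SDC1 and SDC2 were close in every library, with a ratio of 1.08, 0.927 and 0.967. Markers of the tissues these genes are known from gave the following values, beside 47.0% of detected genes that were lowest in teratoma 3. All 8 simple epithelium markers were lowest in teratoma 3, with sums of 801, 818 and 198 RPKM, led by KRT19 at 235, 277 and 66.0 RPKM and KRT8 at 205, 205 and 44.9 RPKM. Of the 11 fibroblast markers 10 were lowest in teratoma 3, with sums of 2023, 1639 and 476 RPKM, led by COL1A1 at 699, 475 and 128 RPKM and COL3A1 at 427, 443 and 114 RPKM. Of 8 stratified epithelium markers only 2 were lowest in teratoma 3 and all were highest in teratoma 2, with sums of 22.4, 255 and 50.1 RPKM. SDC1 was not highest in teratoma 2. Leukocyte markers, which matter for SDC1 because plasma cells carry it, summed to 33.7, 29.9 and 13.2 RPKM, almost all of it CD74 and CD68. CD79A of B cells stayed under 1 RPKM in every library, and MZB1 of plasma cells was listed at 0 in teratoma 1 and under 1 RPKM in the others. On the log2(RPKM + 1) scale SDC1 deviated from its mean by 0.51, 0.29 and -0.79, and SDC2 by 0.38, 0.38 and -0.76. Mean deviations were 0.64, 0.63 and -1.28 for simple epithelium markers and 0.75, 0.29 and -1.04 for fibroblast markers. Other lists were low in teratoma 3 as well: endothelium at -0.78, cartilage at -1.04, Schwann cell and neural crest at -0.68. The part of epithelial and mesenchymal cells in the syndecan levels was not tested.

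**Figure D2:**
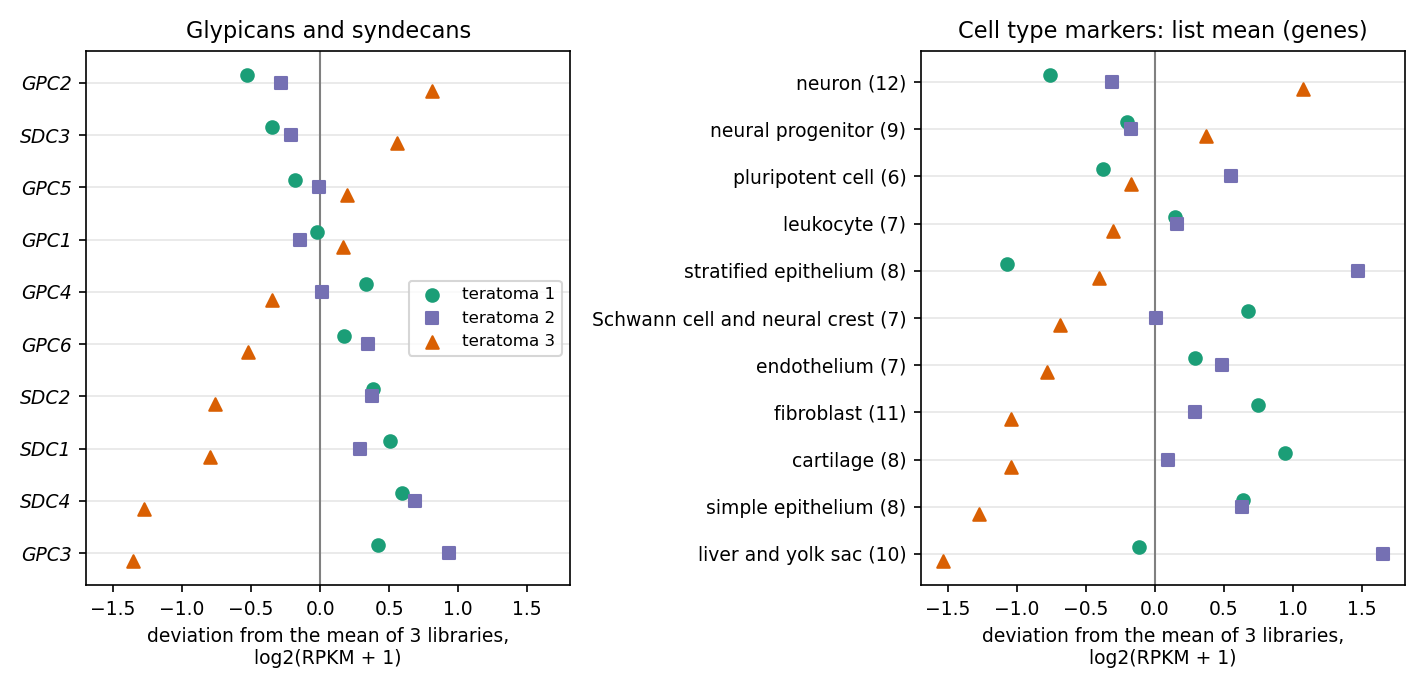
Left, deviation of each gene in each library from its mean over the 3 libraries on the log2(RPKM + 1) scale; right, the mean deviation of the genes of each marker list, with the number of genes in brackets. In teratoma 3, GPC2 and SDC3 lie at 0.81 and 0.56 and neuron markers at 1.07, while GPC3 lies at -1.35 and liver and yolk sac markers at -1.53. Simple epithelium and fibroblast markers lie at -1.28 and -1.04 there.

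The make-up of each family can be read within a library, where the scaling of the library cancels. GPC3 supplied 64.8%, 73.0% and 28.1% of the summed glypican RPKM in teratomas 1, 2 and 3. GPC2 supplied 8.94%, 8.36% and 34.4%, and GPC1 16.9%, 12.1% and 28.8%. Teratoma 3 therefore had GPC2, GPC1 and GPC3 at similar shares, where GPC3 alone held most of the total in teratomas 1 and 2. The ratio of GPC3 to GPC2 was 7.24, 8.73 and 0.817. GPC4 held 7.23%, 4.53% and 6.61%, GPC6 held from 1.66% to 1.97%, and GPC5 at most 0.483%.

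SDC3 supplied 36.5%, 39.2% and 75.7% of the summed syndecan RPKM. SDC4 supplied 25.9%, 27.0% and 7.34%, SDC1 19.5%, 16.3% and 8.34%, and SDC2 18.0%, 17.5% and 8.63%. The ratio of SDC3 to SDC4 was 1.41, 1.45 and 10.3. In both families the leading gene of teratoma 3 was thus a gene known from neurons, GPC2 among glypicans and SDC3 among syndecans. SDC3 also led the syndecans in teratomas 1 and 2, where GPC3 led the glypicans.

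The syndecan total was close in the 3 libraries while its make-up was not. The 4 syndecans summed to 180, 184 and 163 RPKM, a mean of 176 ± 10.96 RPKM. The 6 glypicans summed to 376, 477 and 252 RPKM, a mean of 368 ± 113 RPKM, and without GPC3 to 132, 129 and 181 RPKM. Glypicans exceeded syndecans in 3 of 3 libraries, by 1.07, 1.37 and 0.63 on the log2 scale (mean 1.02 ± 0.38). The exact two-sided sign-flip permutation test gave p = 0.25, the smallest that this test allows with 3 libraries.

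**Figure D3:**
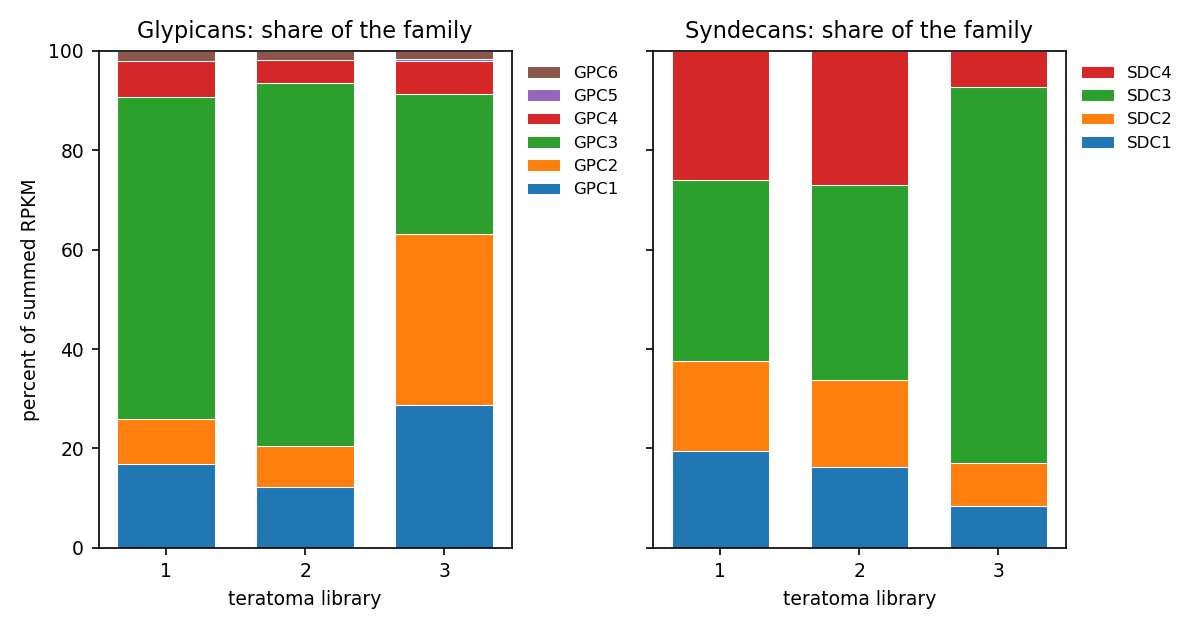
Share of each gene in the summed RPKM of its family, in percent, with 1 stacked bar per library, glypicans on the left and syndecans on the right. GPC3 falls short of 30% of the glypicans in teratoma 3 only, and SDC3 takes 75.7% of the syndecans there.

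Sequences of the start regions are given for genes that moved in opposite directions, GPC2 and SDC3, which were highest in teratoma 3, and SDC4 and SDC1, which were lowest there. The windows are the 250 bases before a transcript start from RefSeq on GRCh38.p14, a later build than the hg19 named for the deposited values, and are written from 5′ to 3′ on the strand of the gene. Windows were at hand for 8 of the 10 genes. Capitals mark the GC box GGGCGG, the TATA sequence TATAAA, the CCAAT box and the E-box CAGCTG on either strand, and no match to one of these motifs overlapped a match to another in the 4 windows, though matches to the GC box can share a base or abut.
GPC2, chr7:100177382-100177631, minus strand: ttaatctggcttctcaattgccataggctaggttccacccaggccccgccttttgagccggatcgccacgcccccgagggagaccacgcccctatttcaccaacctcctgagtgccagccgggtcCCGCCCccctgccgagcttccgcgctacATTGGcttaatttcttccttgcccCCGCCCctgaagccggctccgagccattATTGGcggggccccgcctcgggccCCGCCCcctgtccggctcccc
SDC3, chr1:30908759-30909008, minus strand: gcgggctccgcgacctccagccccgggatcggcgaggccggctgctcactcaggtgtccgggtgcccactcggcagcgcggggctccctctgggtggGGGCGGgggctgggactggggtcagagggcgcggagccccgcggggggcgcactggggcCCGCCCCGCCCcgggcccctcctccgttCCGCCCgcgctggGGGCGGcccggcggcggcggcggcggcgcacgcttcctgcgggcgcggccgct
SDC4, chr20:45348425-45348674, minus strand: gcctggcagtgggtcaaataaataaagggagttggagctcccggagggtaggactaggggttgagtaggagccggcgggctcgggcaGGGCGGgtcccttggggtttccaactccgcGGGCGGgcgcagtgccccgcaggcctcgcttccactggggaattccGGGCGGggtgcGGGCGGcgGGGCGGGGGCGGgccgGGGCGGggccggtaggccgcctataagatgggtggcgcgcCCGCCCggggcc
SDC1, chr2:20225476-20225725, minus strand: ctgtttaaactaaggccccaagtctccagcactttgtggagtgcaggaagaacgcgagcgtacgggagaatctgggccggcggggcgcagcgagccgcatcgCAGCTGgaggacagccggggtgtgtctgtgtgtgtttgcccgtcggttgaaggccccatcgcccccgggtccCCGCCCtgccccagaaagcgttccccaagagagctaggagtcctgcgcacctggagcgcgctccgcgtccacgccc

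The GC box was present in all 4 windows shown, with 3 matches for GPC2, 5 for SDC3, 8 for SDC4 and 1 for SDC1, and in 42.6% of all 35116 windows of this length. The CCAAT box was found in GPC2 alone, with 2 matches, against 32.0% of all windows. Of the 4 windows shown, that of SDC1 alone held the E-box, with 1 match, against 14.0% of all windows. A second start window of SDC1, chr2:20225131-20225380, not shown, held no E-box and 1 GC box, and its share of G and C was 75.2%. No window shown held TATAAA, which 10.7% of all windows held. The share of G and C was 66.8% for GPC2, 83.6% for SDC3, 73.6% for SDC4 and 66.4% for SDC1, against a median of 58% over all windows. The motifs did not sort the genes by the library in which they were highest. A match is a run of letters and does not show that a factor binds there.

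GPC3 and SDC1 were the members with several transcript entries. The 4 entries of GPC3, of 2154, 2268, 2316 and 2385 bases, had 243, 242, 242 and 235 RPKM in teratoma 1. The entry of 2316 bases held 1641, 2309 and 439 reads more than the shortest entry in teratomas 1, 2 and 3, or 10.1, 14.3 and 2.71 reads for each of its 162 additional bases. Over its whole length it had 11.2, 15.8 and 3.06 reads per base, so the additional bases were read nearly as densely as the rest. The entry of 2385 bases had exactly the reads of the entry of 2316 bases in every library, that is, 0 reads for 69 additional bases. The 2 entries of SDC1, of 3201 and 3293 bases, had 35.1 and 34.5 RPKM in teratoma 1. The tables carry no exon structure, and these figures are differences between entries that share most of their reads.

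Genes with the most similar pattern were sought for the 5 members that differed, among 9956 other genes averaging 5 RPKM or more, by the largest absolute difference of the log2(RPKM + 1) deviations over the 3 libraries. GPC3 had few counterparts: ANPEP, an aminopeptidase of brush borders, with 19.8, 29.1 and 5.35 RPKM was within 0.034, and no other gene was within 0.1. Next came SLC39A5, a zinc transporter, with 21.2, 30.9 and 6.43 RPKM. For SDC4, 19 genes were within 0.1, the nearest being CYBA, a subunit of NADPH oxidase, with 93.0, 99.9 and 24.8 RPKM, and the collagen COL3A1. For GPC2, SDC1 and SDC2, 126, 120 and 105 genes were within 0.1, so their patterns were common. The nearest to GPC2 included TPPP, a tubulin binding protein, with 4.94, 6.05 and 14.0 RPKM. The nearest to SDC1 were COL4A5, a basement membrane collagen, with 11.3, 9.59 and 4.0 RPKM, and TES, a focal adhesion protein, with 25.0, 21.2 and 9.60 RPKM. The nearest to SDC2 were ZNF703, a transcriptional regulator, with 56.8, 56.1 and 25.0 RPKM, and LAMA5, a laminin chain, with 17.7, 17.4 and 7.39 RPKM. With 3 libraries such likeness is a description only.

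Of 31 genes that build, modify or remodel heparan sulfate, in 4 lists, 26 were detected, against 52.7% of all genes. Of these 26 genes 3 differed by at least 1 on the log2(RPKM + 1) scale, against 17.6% of all detected genes. Several of the 26 had low levels, where this scale understates differences. With 0.01 added in place of 1, 22.5% of all detected genes differed that far. The count among the 26 was not computed for that setting, so their steadiness holds on the log2(RPKM + 1) scale only. The median difference was 0.35 over the 26 genes and 0.42 over all detected genes. In the linkage region list, whose enzymes attach or modify the first sugars on the core protein, all 6 were detected and none differed by 1. B3GALT6 had 39.8, 37.3 and 42.8 RPKM and B4GALT7 17.2, 16.7 and 13.9 RPKM. Of the 5 chain polymerisation genes 4 were detected and none differed by 1, with EXTL3 at 30.2, 26.8 and 30.2 RPKM and EXT2 at 22.6, 19.6 and 16.7 RPKM. EXT2 forms the polymerase together with EXT1.

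Among the 16 enzymes that modify the chain 14 were detected, against 52.7% of all genes. Of these, 2 differed by at least 1, against 17.6% of detected genes. HS6ST1, a 6-O-sulfotransferase, had the highest level with 49.0, 53.4 and 57.1 RPKM, followed by NDST1, which starts sulfation, with 35.3, 33.6 and 26.3 RPKM. The 2 that differed were both highest in teratoma 3: the 6-O-sulfotransferase HS6ST3 had 1.16, 2.83 and 4.26 RPKM, and the 3-O-sulfotransferase HS3ST4 had 2.21, 3.45 and 7.32 RPKM. Both were low beside HS6ST1. Over all detected genes, 7.07% both differed by at least 1 and were highest in teratoma 3. Of the 4 remodelling genes 2 were detected, which is near the 52.7% of all genes. The sulfatase SULF2, which removes 6-O-sulfate outside the cell, had 48.0, 59.5 and 46.4 RPKM. Its relative SULF1 had 26.2, 24.0 and 11.5 RPKM and differed by 1.13, while the heparanase gene HPSE and its relative HPSE2 stayed under 1 RPKM in every library.

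The other proteoglycans with heparan sulfate, which lie in the matrix or bind TGF-beta, were lowest in teratoma 3. All 4 were detected, against 52.7% of all genes, and 3 differed by at least 1, against 17.6% of all detected genes. Over all detected genes, 10.1% both differed by at least 1 and were lowest in teratoma 3. COL18A1, the basement membrane collagen XVIII, had 156, 152 and 32.2 RPKM, and HSPG2, perlecan, had 36.3, 25.3 and 7.72 RPKM. TGFBR3, betaglycan, had 4.72, 5.51 and 1.33 RPKM. AGRN, agrin, which neurons and basement membranes share, had 122, 114 and 97.1 RPKM and differed by 0.33.

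Genes that cleave core proteins, free them from the cell surface or bind syndecan tails were also measured. Of the 6 cleavage and release genes 4 were detected, against 52.7% of all genes, and 2 differed by at least 1, both lowest in teratoma 3. Over all detected genes, 17.6% differed by at least 1, and 10.1% did so and were lowest in teratoma 3. MMP14, a membrane protease that sheds SDC1, had 119, 83.5 and 31.8 RPKM, and FURIN, the convertase that cleaves glypican cores, had 34.3, 34.3 and 11.3 RPKM. All 9 partners of the syndecan tail were detected, against 52.7% of all genes, and none differed by 1, against 17.6% of detected genes. They were led by EZR, ezrin, at 66.4, 70.6 and 38.7 RPKM and GIPC1, a PDZ protein that binds SDC4, at 49.3, 41.3 and 30.7 RPKM. These lists are short, and their counts were not tested against the share over all genes.

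**Figure D4:**
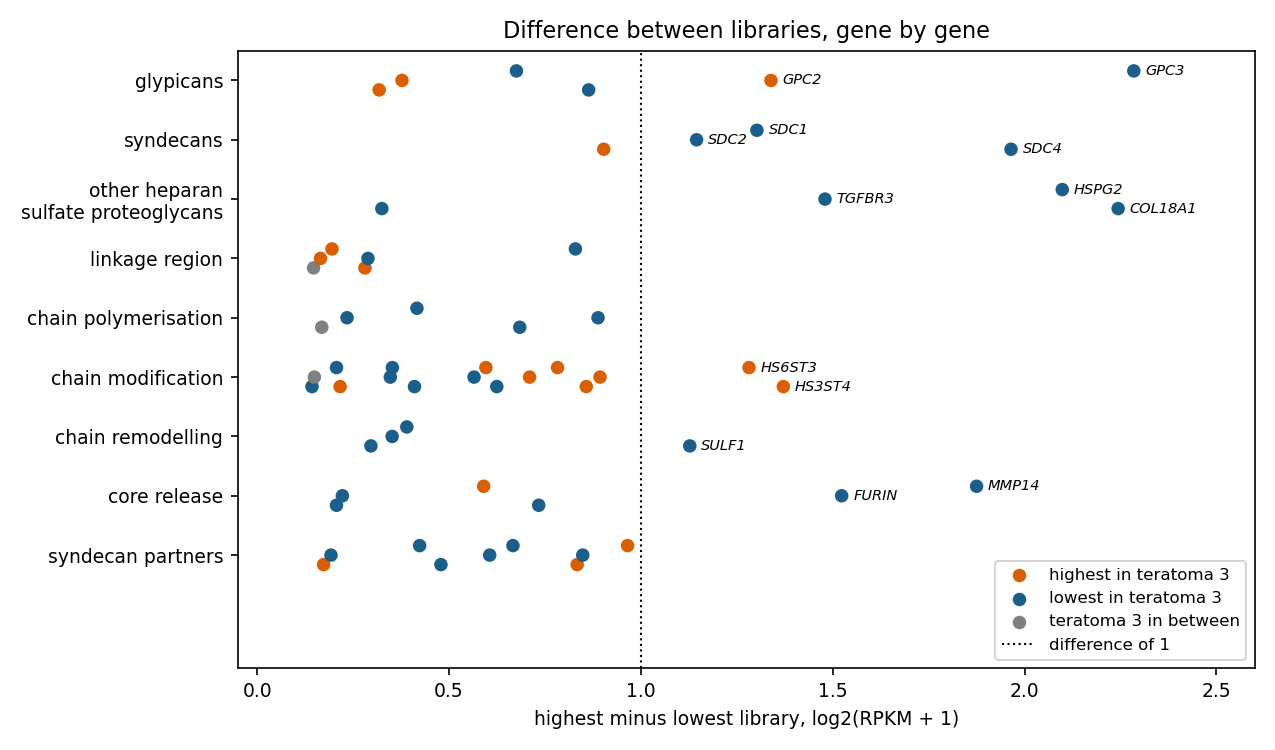
Difference between the highest and the lowest library on the log2(RPKM + 1) scale, with 1 point per gene and 1 line of points per list, coloured by the place of teratoma 3, and with the names of genes at or beyond the dotted line at 1. Past the line lie 2 of 6 glypicans, 3 of 4 syndecans and 3 of 4 other proteoglycans. Of the 31 genes that build, modify or remodel the chains, 26 were detected and 3 lie past the line. The share over all detected genes was 17.6%.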

How the data were processed

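Polyadenylated RNA was measured in 3 teratoma libraries. The deposited RPKM values and raw read counts per RefSeq transcript entry are the authors' own. Per the submitters' processing notes, Bowtie2 and hg19 were used. The counting tool, the strand setting and the handling of mouse reads were not stated, so overlapping or antisense transcripts cannot be told apart. The deposited RPKM equals the count divided by length and 1 total per library. The other deposited columns hold an entry length and what is probably a number of genome placements (1 for each member).

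From 59443 entries, the entry with the highest mean RPKM was kept per symbol. Means and SDs are over the 3 libraries, and that spread may be of technical origin. No model was fitted, since there is 1 group. Detection meant at least 1 RPKM in every library, and differences used log2(RPKM + 1). Intervals are exact Poisson (95%) and cover counting error only; for GPC5, 3 reads correspond to 0.0221, 0.0223 and 0.0234 RPKM. The range statistic was tested on simulated counts. Members, lists and rules were chosen with earlier results of these data known. Named were all members, the 2 highest genes of each of 7 pathway lists and up to 4 that differed, leading genes of marker lists, and the 2 genes nearest in pattern. Some genes these rules name are not reported here. Alternatives covered the entry kept, scaling, thresholds, pseudocount and each library left out. Tools were Python 3.11.15, numpy 2.4.6, pandas 2.3.3, scipy 1.17.1 and matplotlib 3.10.9.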

Additional observations from a re-analysis of the deposited data

How the results depend on the processing

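The counts, shares and family ratio kept within 1.5 times, 1 SD or their sign in 51 of 56 recomputations. The 5 that did not were as follows. The number of members that differed was 8 with a difference of at least 0.5 (42.8% of detected genes) and 1 with at least 2, and ranged from 0 (without teratoma 3) to 5 when each library was left out. The number of separate neighbours in the order ranged from 2 to 7 (without teratoma 3). The share of GPC3 among glypicans was 80.0% with entries summed, where the 4 entries share most of their reads, and the mean log2 ratio of glypicans to syndecans was then 2.18, against 1.02. SDC3 passed the difference of 1 after rescaling to 1000000 per library (1.02) and with median-of-ratios size factors (1.00), so 6 members differed there. GPC6 lay near the limit as well, and 6 members differed with a pseudocount of 0.01. Leaving out each library, the mean log2 ratio of glypicans to syndecans ranged from 0.85 to 1.22, the share of GPC3 from 46.4% to 68.9%, the share of SDC3 from 37.9% to 57.4%. The number of members detected stayed at 9 without any 1 library, was 8 at 5 RPKM, and was 10 at 0.5 RPKM or after rescaling. The highest library turned with scaling for SDC2 between teratomas 1 and 2. Of the other genes named, it turned from teratoma 1 to 2 for B4GALT7 and COL18A1 after rescaling, and for FURIN after rescaling and with median-of-ratios. Under both, EXTL3 turned to teratoma 3, and the lowest library of SULF2 was teratoma 1 in place of 3. Rescaling raised the level of every member, that of GPC3 to 762 and that of GPC5 to 3.34. No paired analysis was possible because the libraries form 1 group. Values near the level of 3 reads, such as the antisense entries, are limited by depth.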

Other observations

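A pseudogene and antisense transcripts looked up by name were almost empty. Other entries that may overlap or resemble the members were not searched for. SDC4P, a pseudogene of SDC4, had 11, 8 and 2 reads in teratomas 1, 2 and 3, beside 5617, 5946 and 1365 for SDC4. The antisense transcript GPC5-AS1 had 5, 0 and 1 reads in the entry kept of its 3. GPC5-AS2 had 0, 1 and 0, GPC6-AS1 1, 0 and 0, and GPC6-AS2 had none in any library.

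Some members are neighbours on their chromosome in RefSeq. GPC4 lies next to GPC3 on the X chromosome and GPC5 next to GPC6 on chromosome 13, with no other protein-coding gene between them in the table. The members of these pairs differed in level: GPC4 stood at 0.112, 0.0621 and 0.235 of the RPKM of GPC3 in teratomas 1, 2 and 3. GPC5 was highest in teratoma 3, where GPC6 was lowest.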
